A study of Mus musculus with 4 samples.

Results

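Monocyte genes were followed in RNA-seq of whole tibial bone marrow from diet-induced obese mice with and without exercise. The genes were 9, chosen by name: Ly6c2, F13a1, Ms4a6c, Fcgr1, Fn1 and Lyz2, known from classical monocytes, Ace and Treml4, known from nonclassical monocytes, and Ly86, found in both. All 9 were among the 55401 genes of the deposited tables, and all of them passed the minimum mean of 0.1 FPKM (fragments scaled to transcript length and library size) that left 18596 genes for testing. All the mice were wild-type male C57/B6 mice put on a high-fat diet at 8 weeks of age. The obesity group (Ob, 2 libraries, labelled HFD) had no other intervention, and the exercised group (Ob + Exe, 2 libraries, labelled HFD and Exercise) ran on a treadmill at moderate intensity for 12 weeks under the same diet. No lean or chow-fed mice are among the libraries, so the diet is shared by both groups.

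Monocytes are made in the bone marrow from myeloid progenitors under the growth factor receptor Csf1r and transcription factors such as PU.1, Irf8 and Klf4. Classical monocytes carry Ly6C on their surface, leave the marrow through the chemokine receptor Ccr2 and enter inflamed tissue. Part of them turn into nonclassical monocytes, which lose Ly6C, depend on Nr4a1 and Cebpb, and patrol the vessel wall. Both are a minority of marrow cells beside neutrophil and erythroid precursors, so a level measured in whole marrow is the product of the number of cells and the RNA per cell, and these cannot be told apart here.

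The promoter windows of 7 genes are printed to show a motif found in 4 of the monocyte genes printed, the windows of Ace and Treml4, which do not hold it, and a paralog of Lyz2 with a like upstream sequence and a far lower level. Each line holds 150 bases upstream of the first transcript start, 5′ to 3′ on the strand of the gene, from RefSeq on GRCm38.p6. Capitals mark AGGAAGT on either strand, an ETS-type motif of the kind PU.1 binds, and in Fcgr1 also TTCNNNGAA, the gamma-interferon activation site bound by STAT factors. The Lyz1 window is set at the same distance from the RefSeq start as that of Lyz2. The coordinates are chr15:75111972-75112121 for Ly6c2, chr19:11469216-11469365 for Ms4a6c, chr3:96293970-96294119 for Fcgr1, chr10:117282322-117282471 for Lyz2, chr10:117292918-117293067 for Lyz1, chr11:105967795-105967944 for Ace and chr17:48264145-48264294 for Treml4. Ace, Treml4 and Ms4a6c lie on the plus strand, and the others lie on the minus strand.
Ly6c2: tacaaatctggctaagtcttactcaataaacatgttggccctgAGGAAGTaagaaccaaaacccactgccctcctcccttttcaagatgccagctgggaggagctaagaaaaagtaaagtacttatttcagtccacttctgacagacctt
Ms4a6c: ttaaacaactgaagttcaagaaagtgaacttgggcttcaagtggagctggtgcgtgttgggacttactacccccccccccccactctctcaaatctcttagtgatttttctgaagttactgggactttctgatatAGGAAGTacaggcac
Fcgr1: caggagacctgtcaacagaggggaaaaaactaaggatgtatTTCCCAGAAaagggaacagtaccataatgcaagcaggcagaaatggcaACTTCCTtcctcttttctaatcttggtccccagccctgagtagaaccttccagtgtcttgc
Lyz2: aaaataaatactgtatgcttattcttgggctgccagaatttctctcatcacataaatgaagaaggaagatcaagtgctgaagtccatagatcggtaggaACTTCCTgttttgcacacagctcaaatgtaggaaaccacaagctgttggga
Lyz1: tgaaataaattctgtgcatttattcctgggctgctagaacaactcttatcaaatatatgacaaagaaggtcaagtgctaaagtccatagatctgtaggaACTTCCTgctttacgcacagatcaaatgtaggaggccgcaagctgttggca
Ace: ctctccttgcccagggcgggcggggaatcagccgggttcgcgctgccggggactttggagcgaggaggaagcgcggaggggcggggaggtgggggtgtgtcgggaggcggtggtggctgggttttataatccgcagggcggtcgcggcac
Treml4: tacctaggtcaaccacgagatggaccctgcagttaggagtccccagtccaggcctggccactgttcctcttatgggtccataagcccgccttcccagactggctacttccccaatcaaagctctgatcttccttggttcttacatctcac

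Of the 9 genes, 8 were in the RefSeq promoter table. The entry for Fn1 was missing. Within 200 bases upstream of a RefSeq start, AGGAAGT was present on either strand in 5 of the 8 genes: Ly6c2, F13a1, Ms4a6c, Fcgr1 and Lyz2. In F13a1 the match was at position -36 of the RefSeq start at chr13:37049213, and the start at chr13:37050244 had none. The transcript that carried most of F13a1 starts at chr13:37049288 on the minus strand, so the match lies after that start. The 5 genes are the classical monocyte genes of the table, whereas Ace, Treml4 and Ly86 did not hold these letters in this window. The paralogs Lyz1 and Ly6c1, which are not among the 9 genes, also held the motif. In Ly6c1 it lay upstream of the RefSeq start at chr15:75048663 but not of the start at chr15:75048837. Of all 27025 genes in the table, 7.32% held the motif. The gamma-interferon activation site TTCNNNGAA, which is its own reverse complement, was found in 1 of the 8 genes, Fcgr1, and in 6.38% of all genes. The matches are matches of letters only, and the motifs were chosen after the sequences were seen.

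Sequencing depth was estimated from the deposited coverage and a read length of 150 bases. It was 53038186 and 50423542 reads on transcripts in Ob, against 44310505 and 46668748 in Ob + Exe. Both Ob + Exe libraries were thus shallower than both Ob libraries. The part of depth in the differences between the groups was not tested. Over all genes tested, 696 (3.74%) were called at the thresholds of the study, an unadjusted p under 0.05 in limma and a log2 fold change beyond 1, of which 511 (2.75%) were lower and 185 (0.995%) were higher in Ob + Exe. After Benjamini-Hochberg adjustment 0 genes stayed under 0.05 in limma, while 939 (5.05%) were under it before adjustment. With 2 libraries against 2, the smallest two-sided p of the exact permutation test is 0.33, and p values measure the spread between these few mice only. The labels also name mesenchymal stem cells and fibroblasts as the cells of the libraries. Of the 10 mesenchymal and fibroblast markers none was at 0. Pdgfra (0.264 to 0.380 scaled FPKM) and Col3a1 (0.215 to 0.690) had the lowest means, Col1a2 was between 4.96 and 7.32, and Cxcl12, the chemokine of marrow stroma, was between 88.3 and 142. The neutrophil gene S100a8 was between 11904 and 35867.

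The levels of the 9 genes, which FPKM allows to be compared per length of transcript, ranged from the 10th to the 8889th place among the genes tested. Lyz2 was the 10th most abundant of the genes tested and Ly6c2 was the 157th. F13a1 (821st), Ms4a6c (1028th) and Fn1 (1240th) formed a middle group between 50.2 and 69.2 scaled FPKM as a mean of the 4 libraries. Ly86 had a mean of 30.6 and Treml4 one of 14.0. Ace (4.10) and Fcgr1 (3.96) were the lowest, and the values of these neighbours interleaved between libraries.

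**Figure D1:**
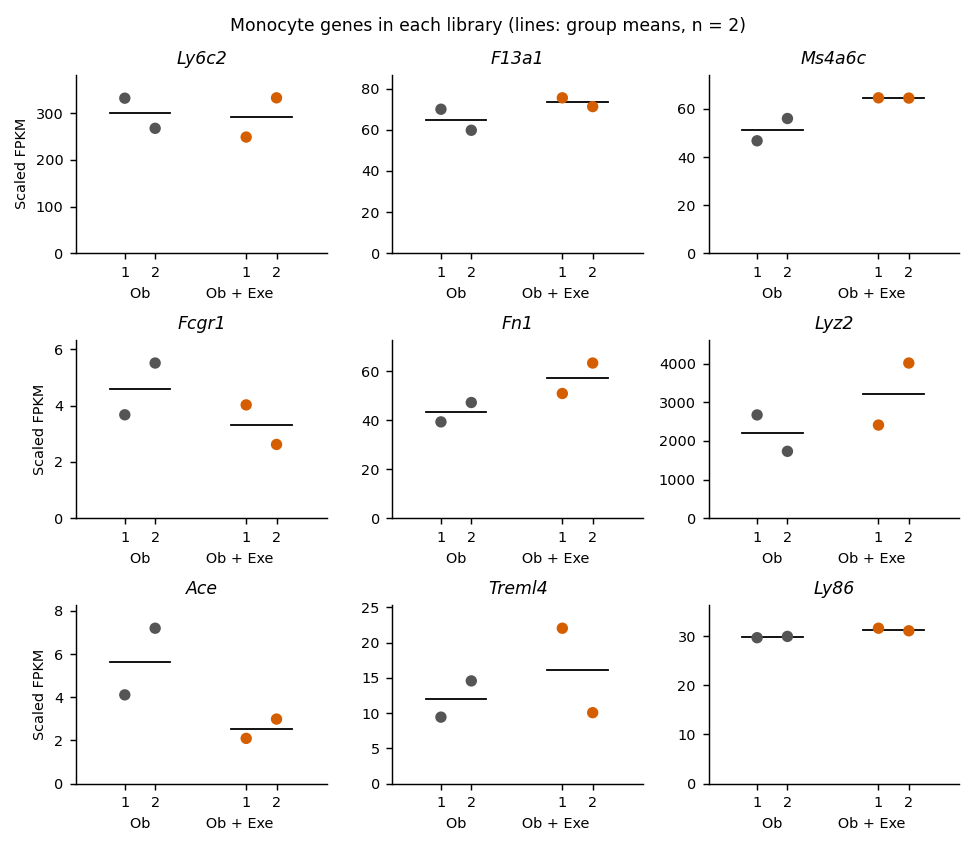
Scaled FPKM (vertical axis, from 0) of each of the 9 genes in the 2 Ob and 2 Ob + Exe libraries, with replicate numbers on the horizontal axis, points for libraries and lines for group means. Ace lay lower in both Ob + Exe libraries, F13a1, Ms4a6c, Fn1 and Ly86 lay higher in both, and the groups overlapped for the other genes.

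Ace was the 1 gene of the 9 that was called, against 3.74% of all genes. It encodes angiotensin-converting enzyme, which cleaves angiotensin I to angiotensin II and is also carried by endothelial cells and macrophages. The Ob mice had 4.11 and 7.20 scaled FPKM, and the Ob + Exe mice had 2.09 and 2.99. Both exercised mice were below both sedentary mice, and the Ob mice differed from each other by more than the gap between the groups. From 5.66 ± 2.18 (SD, n = 2) in Ob, the mean fell by 55.1% to 2.54 ± 0.633 (SD, n = 2) with exercise. The log2 fold change was -1.09 (standard error 0.404, 95% interval -2.09 to -0.094, unadjusted p = 0.0368, adjusted p = 0.96 from limma). The values rested on 1228 and 2216 read equivalents in Ob and on 607 and 761 in Ob + Exe. Of all genes tested, 2.75% were called in this direction. Leaving out any single library ended the call, with log2 fold changes from -1.49 to -0.69.

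The transcripts of Ace (ENSMUSG00000020681.14, chr11:105967945-105989964) say which of its products was measured. The gene has a somatic transcript of 25 exons, whose promoter is printed above, and a short transcript of 14 exons that starts inside the gene and encodes the enzyme of the testis. The somatic transcript had 2.46 and 5.67 FPKM in Ob, against 2.11 and 2.23 in Ob + Exe, which leaves the first Ob library close to the exercised mice. A protein-coding transcript of 20 exons had 1.75 and 1.82 FPKM in Ob, 0.591 in Ob + Exe replicate 2, and is listed at 0 in Ob + Exe replicate 1. The testis transcript did not exceed 0.0216 FPKM in any library. With the most abundant transcript alone in place of the whole gene, the log2 fold change of Ace was -0.68 and the call was lost.

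Markers of endothelial cells were lower in both Ob + Exe libraries, as Ace was. All 5 of the list (Cdh5, Pecam1, Kdr, Emcn and Tek) had both Ob + Exe libraries below both Ob libraries, as had 18.4% of all genes tested. The order of the 4 libraries seen for Ace was shared by 0 of the 5 markers and by 6.37% of all genes tested. None of the 5 was called. Their summed level was 16.5 and 14.9 scaled FPKM in Ob, against 11.005 and 10.5 in Ob + Exe. Most of this sum was Pecam1, with 12.1 and 11.4 in Ob, against 8.00 and 8.10 in Ob + Exe. None of these markers was at 0. Of 12 macrophage markers, 11 were tested and none was called, with a summed level of 134 and 160 scaled FPKM in Ob, against 163 and 136 in Ob + Exe. Of the 11, 4 had both exercised mice below both sedentary mice (C1qa, Mrc1, Cd163 and Timd4) and 2 had them above (Adgre1 and Vcam1). Among the 13 other genes of nonclassical monocytes, 3 were separated lower like Ace (Nr4a1, Gngt2 and Cd300e) and 2 were separated higher (Itgal and Fabp4). The other 8 overlapped, among them Cx3cr1, the fractalkine receptor. The shares separated over all genes tested were 18.4% lower and 14.3% higher. The part of endothelial cells, macrophages or nonclassical monocytes in the lower level of Ace was not tested.

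Angiotensinogen, the precursor of the substrate of the enzyme, is encoded by Agt and was called in the other direction. In scaled FPKM it had 0.880 and 1.68 in Ob, against 2.54 and 3.47 in Ob + Exe. Both exercised mice were above both sedentary mice (log2 fold change 1.22, standard error 0.462, adjusted p = 0.96 from limma). The call was lost when any single library was left out, with log2 fold changes between 0.79 and 1.647. The ratio of Ace to Agt was 4.67 and 4.29 in the sedentary mice, whereas it was 0.825 and 0.861 after exercise. This ratio was chosen after the values of both genes were seen.

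**Figure D2:**
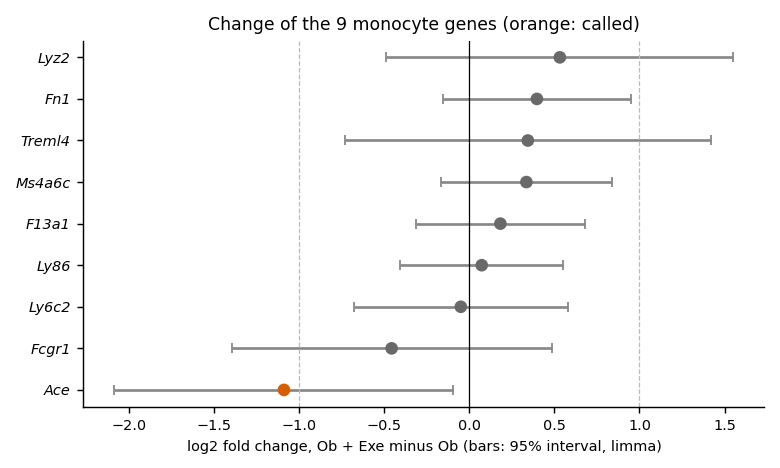
Log2 fold change of the 9 genes (horizontal axis, Ob + Exe minus Ob) with 95% intervals from limma, and dashed lines at the threshold of 1 in both directions. The interval of Ace, in orange, runs from -2.09 to -0.094, and those of the other 8 genes include 0.

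Ly6c2 (ENSMUSG00000022584.14, chr15:75108158-75111970) encodes the Ly6C antigen that defines classical monocytes. Its scaled FPKM was 332 and 268 in Ob, against 249 and 333 in Ob + Exe. The first Ob library and the second Ob + Exe library were nearly equal, and the spread inside each group was far larger than the difference between the groups. The log2 fold change was -0.05 (95% interval -0.68 to 0.58, adjusted p = 0.987 from limma). Its sign turned positive without Ob replicate 1 (0.11) and without Ob + Exe replicate 1 (0.16).

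The transcripts of Ly6c2 differed more between libraries than the gene. The transcript of 4 exons and 822 bases, whose start lies next to the printed promoter, carried 65.7% and 58.8% of the FPKM of the gene in Ob and 79.2% in Ob + Exe replicate 1, but 20.4% in Ob + Exe replicate 2. There the transcript of 3 exons and 638 bases carried 73.8%, against 18.2% to 38.2% in the other libraries. Since FPKM divides by length, the division of reads among transcripts enters the sum. As RPM, the estimated reads divided by the library total, Ly6c2 had 348 and 287 in Ob, against 275 and 282 in Ob + Exe. The groups did not overlap on this scale, as was the case for 32.1% of all genes tested. The gap between 287 and 282 was far smaller than the spread inside Ob. With limma voom on the estimated reads, the log2 fold change was -0.12 without a call.

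The near paralog Ly6c1, known from endothelial cells, shared 5.79% of the 150-base windows of the longer Ly6c2 transcript, and 33.0% of its 50-base windows were found in another gene, mainly Ly6c1. Ly6c1 had 2.74 and 2.29 in Ob, against 0.158 and 0.984 in Ob + Exe (scaled FPKM). It was called lower (log2 fold change -2.30, standard error 0.754, adjusted p = 0.96 from limma) from 152, 129, 8 and 46 read equivalents. Ly6c2 was from 117 to 1572 times as abundant, and the level of Ly6c1 is uncertain because the genes share sequence. Its call was lost without either Ob library.

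F13a1 (ENSMUSG00000039109.16, chr13:36867178-37050244) encodes the A subunit of coagulation factor XIII, which is made by classical monocytes, some macrophages and megakaryocytes. Its level was 70.04 and 59.8 scaled FPKM in Ob, against 75.6 and 71.3 in Ob + Exe. Both exercised mice were slightly above both sedentary mice after scaling, but the groups overlapped in the FPKM as deposited. The log2 fold change was 0.18 (95% interval -0.31 to 0.68, adjusted p = 0.966 from limma). One transcript of 15 exons accounted for 97.2% to 99.0% of the gene, and the transcript of 15 exons that starts farther upstream is listed at 0 in all 4 libraries. Megakaryocyte markers lay on the other side, with 7 of 7 log2 fold changes below 0, 2 of them called lower (Gp1ba and Gp1bb), and a summed level of 464 and 339 scaled FPKM in Ob, against 374 and 140 in Ob + Exe. Of all genes tested, 51.8% were below 0 and 2.75% were called lower. Without Ob + Exe replicate 2, 5 of the 7 were below 0, and the median log2 fold change was -0.26 instead of -0.95. None of the 7 was at 0, and their part in the level of F13a1 was not tested.

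Ms4a6c (ENSMUSG00000079419.4, chr19:11469366-11482192), a membrane protein of the MS4A family, was 46.7 and 56.0 scaled FPKM in Ob, against 64.6 and 64.5 in Ob + Exe. Both Ob + Exe libraries were above both Ob libraries on each of the 3 scales examined, which were scaled FPKM, FPKM as deposited and RPM. These scales come from the same libraries and are not independent. The mean was 25.7% higher in Ob + Exe (log2 fold change 0.33, 95% interval -0.17 to 0.84, adjusted p = 0.96 from limma). An annotated gene on the opposite strand, BE692007, covers part of it and shares 49.7% of its 150-base windows. The library kit named in the study does not mark strand, so reads of the pair cannot be told apart, and BE692007 itself had 9.94 and 9.54 FPKM in Ob, against 14.7 and 12.1 in Ob + Exe. The relatives Ms4a6b (12.5 to 14.3) and Ms4a6d (6.15 to 13.9 scaled FPKM) overlapped between the groups.

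Fcgr1 (ENSMUSG00000015947.10, chr3:96282909-96293969) encodes the high-affinity IgG receptor CD64, a marker of monocytes and macrophages that interferon-gamma induces. The scaled FPKM of Fcgr1 was 3.67 and 5.51 in Ob, against 4.02 and 2.62 in Ob + Exe, with the first library of each group between the second ones. The log2 fold change was -0.46 (95% interval -1.40 to 0.48, adjusted p = 0.96 from limma). The signalling chain that it needs, Fcer1g, was 316 and 247 in Ob, against 236 and 310 in Ob + Exe. Of the other receptors, Fcgr3, Fcgr2b and Fcgr4 had log2 fold changes of 0.14, 0.23 and 0.02, and none was called.

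Fn1 (ENSMUSG00000026193.15, chr1:71585520-71653200) encodes fibronectin, a matrix protein whose transcript classical monocytes also contain. Its level was 39.4 and 47.3 scaled FPKM in Ob, against 50.9 and 63.4 in Ob + Exe. Both exercised mice were above both sedentary mice (log2 fold change 0.40, 95% interval -0.16 to 0.95, adjusted p = 0.96 from limma). Reads did not follow this order. As RPM, Fn1 had 361 and 250 in Ob, against 274 and 320 in Ob + Exe, and limma voom on the estimated reads gave a log2 fold change of 0.04. Of 10 mesenchymal and fibroblast markers, 1 was called lower (Col1a1), as were 2.75% of all genes tested. The 10 markers had a summed level of 116 and 167 scaled FPKM in Ob, against 113 and 171 in Ob + Exe. Most of this sum was Cxcl12. None of these 10 markers was at 0, and their part in the level of Fn1 was not tested.

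The transcripts of Fn1 set 1 library apart from the other 3. In Ob replicate 1, the 7 full-length transcripts of 44 or more exons carried 90.5% of the FPKM of the gene. In Ob replicate 2 they carried 7.65%, and in Ob + Exe they carried 12.5% and 10.5%. A transcript of 17 exons and 4022 bases from the 3′ side of the gene, annotated as a retained intron, took their place with 39.8 FPKM in Ob replicate 2 and 37.4 and 50.7 in Ob + Exe, against 0.796 in Ob replicate 1. The split therefore ran between the 2 Ob mice and not between the groups. It shows in the alternative that uses the most abundant transcript alone, in which the log2 fold change of Fn1 was 2.95 without a call. Since FPKM divides by length, the split also enters the summed FPKM of Fn1 and so the order of the libraries. The read equivalents of Fn1 were 19141 in Ob replicate 1, 12590 in Ob replicate 2, and 12156 and 14951 in Ob + Exe.

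Fibronectin made by tissue cells includes the alternative exons EIIIA and EIIIB, which plasma fibronectin from liver lacks. The exon of 270 bases, the length of EIIIA, at chr1:71603660-71603929 is present in 4 of the 7 full-length transcripts. These 4 held 5.95% of the full-length FPKM in Ob replicate 1, 94.2% in Ob replicate 2, and 83.9% and 93.0% in Ob + Exe. The full-length sum behind these shares was 36.7 FPKM in Ob replicate 1 but only from 3.77 to 6.40 in the other libraries, and the transcript of 17 exons that held most of the reads there lacks the exon. The exon of 273 bases, the length of EIIIB, in 1 full-length transcript, held at most 14.7% of the full-length FPKM.

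**Figure D3:**
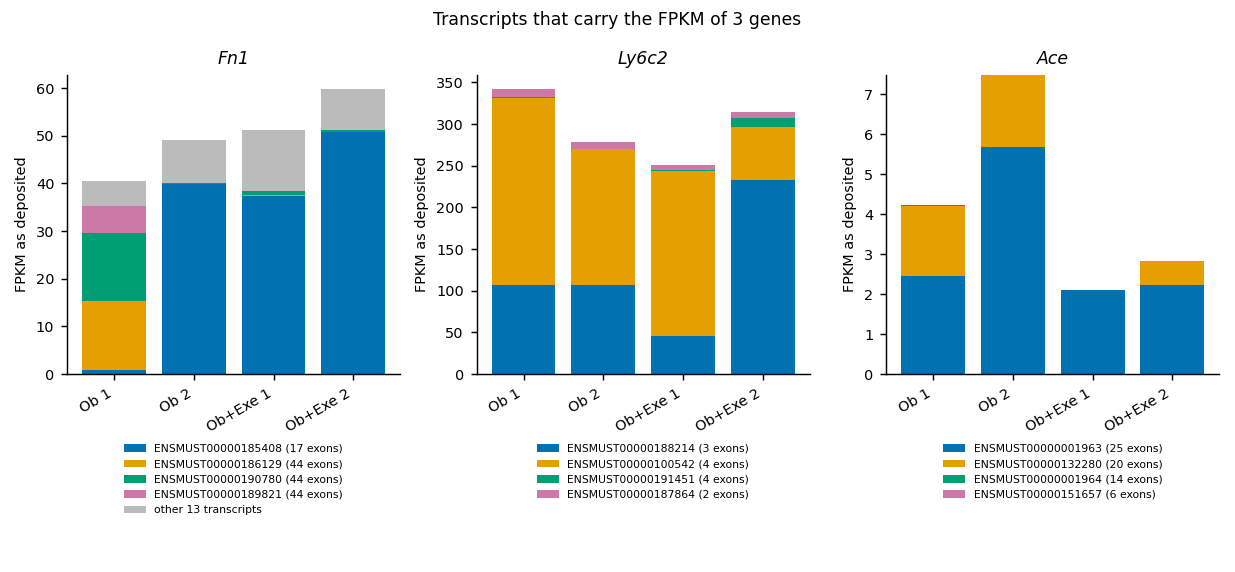
FPKM as deposited (vertical axis, from 0) of Fn1, Ly6c2 and Ace in each library, stacked by transcript, with the number of exons in the legend. For Fn1 the transcript of 17 exons holds from 37.4 to 50.7 FPKM in 3 libraries and 0.796 in Ob replicate 1, and for Ly6c2 the transcript of 3 exons leads in Ob + Exe replicate 2 only.

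Lyz2 (ENSMUSG00000069516.8, chr10:117277331-117282321) encodes lysozyme M, which monocytes, macrophages and neutrophils all produce. Its scaled FPKM was 2672 and 1732 in Ob, against 2410 and 4013 in Ob + Exe. The lowest and the second highest values were those of the Ob mice, so the groups overlapped in spite of a mean that was 45.8% higher in Ob + Exe (log2 fold change 0.53, 95% interval -0.49 to 1.55, adjusted p = 0.96 from limma). The order of the 4 libraries was that of most neutrophil markers, lowest in Ob replicate 2, then Ob + Exe replicate 1, Ob replicate 1 and Ob + Exe replicate 2. This order was shared by 7 of the 10 neutrophil markers and by 6.57% of all genes tested. The neutrophil list had a summed level of 48576 and 27786 scaled FPKM in Ob, against 35846 and 65729 in Ob + Exe, none of its genes was at 0 and none was called. It was also shared by 6 of the 14 other genes of classical monocytes and by 0 of the other 8 genes followed here. The part of neutrophils in the level of Lyz2 was not tested.

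**Figure D4:**
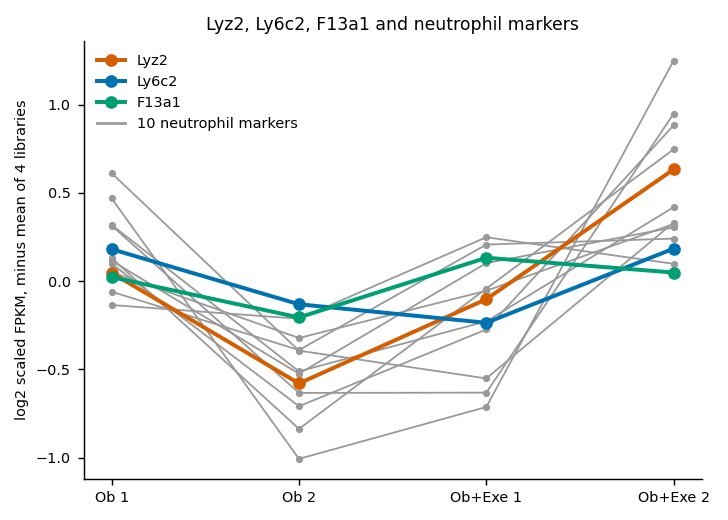
Log2 scaled FPKM minus its mean over the 4 libraries (vertical axis) for Lyz2, Ly6c2, F13a1 and the 10 neutrophil markers, with lines that join the values of a gene. Lyz2 is lowest in Ob replicate 2 and highest in Ob + Exe replicate 2, as 7 of the 10 markers are with the same order between, while F13a1 is highest in Ob + Exe replicate 1.

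The paralog Lyz1, the lysozyme of Paneth cells in the gut, lies next to Lyz2 with the printed promoter window identical at 80.8% of the aligned positions, the AGGAAGT motif included. Lyz1 had 6.80 and 2.61 in Ob, against 7.06 and 5.42 in Ob + Exe (scaled FPKM). Lyz2 was from 341 to 740 times as abundant as Lyz1 in the same library. Of the windows of Lyz2, 0% of those of 150 bases and 15.4% of those of 50 bases were found in another gene, which leaves the low level of Lyz1 uncertain.

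Treml4 (ENSMUSG00000051682.15, chr17:48264295-48275360), a receptor of the TREM family found on nonclassical monocytes and some macrophages and dendritic cells, was 9.43 and 14.6 scaled FPKM in Ob, against 22.1 and 10.1 in Ob + Exe. The highest and the second lowest values were both from exercised mice. The log2 fold change was 0.34 (95% interval -0.73 to 1.42, adjusted p = 0.971 from limma), and it was -0.22 without Ob + Exe replicate 1 and 0.91 without Ob + Exe replicate 2. Treml4 and Ace, the pair of nonclassical genes, thus did not move together: Ob + Exe replicate 1 held the highest level of Treml4 and the lowest of Ace. Ly6c2 was from 11.3 to 35.2 times as abundant as Treml4, with the extremes in Ob + Exe replicate 1 and Ob replicate 1.

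Ly86 (ENSMUSG00000021423.6, chr13:37345208-37419036) encodes MD-1, the partner that the receptor CD180 needs at the surface of B cells and myeloid cells. It varied least of the 9 genes, with 29.7 and 29.98 scaled FPKM in Ob, against 31.6 and 31.1 in Ob + Exe, a ratio of highest to lowest of 1.06. The log2 fold change was 0.07 (95% interval -0.41 to 0.55, adjusted p = 0.984 from limma), and without scaling it was -0.015. Its partner Cd180 was 10.8 and 9.54 in Ob, against 10.03 and 7.60 in Ob + Exe. Of 8 B-cell markers, 2 were called lower (Cd79a and Igll1), as were 2.75% of all genes tested. The list summed to 199 and 207 scaled FPKM in Ob, against 159 and 126 in Ob + Exe, with none of the 8 at 0. The part of B cells in the level of Ly86 was not tested.

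In all, 5 of the 9 genes had groups that did not overlap after scaling, against 32.6% of all genes tested. Ace was lower, as were 18.4% of all genes, and F13a1, Ms4a6c, Fn1 and Ly86 were higher, as were 14.3%. On the FPKM as deposited there were 3, Ace, Ms4a6c and Fn1, against 32.8% of all genes. As RPM there were also 3, Ly6c2, Ace and Ms4a6c, against 32.1%, so both counts were near the share of all genes. Ace and Ms4a6c were thus separated on each of these scales, which are computed from the same libraries and are not independent. The median log2 fold change of the 9 genes was 0.18, beside -0.02 for all genes tested, and 3 of the 9 were below 0, as were 51.8% of all genes.

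Other genes of classical monocytes gave no call. Of 14 genes, all tested, 13 had a log2 fold change above 0, as did 48.2% of all genes, and the median was 0.33. Without Ob + Exe replicate 2 this was 7 of 14, with a median of 0.05, so the count rested on that library. The summed level of the neutrophil list was highest in the same library, though Ngp and Csf3r were highest in others. The part of neutrophils in the count was not tested. The chitinase-like gene Chil3, also of neutrophils, was 1190 and 775 scaled FPKM in Ob, against 1056 and 1841 in Ob + Exe. Haptoglobin, Hp, was 303 and 203 in Ob, against 384 and 444 in Ob + Exe (log2 fold change 0.74, unadjusted p = 0.0376 in limma), short of the threshold of 1. Plac8, the single gene of the list below 0, had a log2 fold change of -0.35, and Ccr2, which lets classical monocytes leave the marrow, was 54.8 and 52.7 in Ob, against 58.5 and 64.7 in Ob + Exe (log2 fold change 0.20).

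Other genes of nonclassical monocytes showed no call in 13 tested. Of these, 9 had a log2 fold change below 0 and 4 above 0, with a median of -0.11, and without Ob + Exe replicate 1 these were 6 and 7, with a median of 0.01. Nr4a1, the nuclear receptor that nonclassical monocytes need, was 8.09 and 10.5 scaled FPKM in Ob, against 5.75 and 4.94 in Ob + Exe. Both exercised mice were below both sedentary mice (log2 fold change -0.78, standard error 0.278, unadjusted p = 0.0323 in limma), within the threshold of 1. Of the most abundant genes of the list, Cebpb (log2 fold change 0.17) and Ear2 (-0.10) overlapped, and Fabp4, a fatty acid binding protein also of adipocytes and endothelial cells, was 59.2 and 57.0 in Ob, against 103 and 78.1 in Ob + Exe (log2 fold change 0.63, unadjusted p = 0.0313 in limma).

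Of the 8 regulators of monocytes, none was called and 6 had a log2 fold change below 0 (Cebpb and Nr4a1 are also in the nonclassical list). Klf4, a transcription factor of monocyte differentiation, was 9.36 and 10.2 scaled FPKM in Ob, against 5.15 and 5.50 in Ob + Exe. The gap between the groups was larger than the spread inside either one (log2 fold change -0.87, standard error 0.25, unadjusted p = 0.0142, adjusted p = 0.96 from limma). Spi1, which encodes PU.1, was 91.4 and 59.4 in Ob, against 71.8 and 91.6 in Ob + Exe, and Irf8 was 41.6 and 42.8 in Ob, against 49.9 and 28.8 in Ob + Exe. Klf4 and Nr4a1 are also early response genes of many cell types, and they were singled out after their values were seen.

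Binding partners and paralogs gave 3 further calls. Of all genes tested, 2.75% were called lower and 0.995% were called higher. Of 10 partners, 6 were tested and 1, Agt, was called, while the fibrinogen genes Fga, Fgb and Fgg, substrates of the factor XIII pathway made in liver, are listed at 0 in all 4 libraries. The fibronectin receptor subunits Itgb1 and Itga4 had log2 fold changes of -0.16 and -0.53 without a call. Of 15 paralogs, 14 were tested, and Ly6c1 and Treml1 were called lower. Treml1, the TREM family member of platelets, was 14.3 and 13.4 scaled FPKM in Ob, against 9.52 and 4.70 in Ob + Exe (log2 fold change -1.04, standard error 0.375, adjusted p = 0.96 from limma). Its call was lost without Ob replicate 1, Ob replicate 2 or Ob + Exe replicate 2. Trem3, with Fcgr3 the most abundant of the 15 paralogs listed, was 70.1 and 44.2 in Ob, against 73.1 and 90.3 in Ob + Exe.

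**Figure D5:**
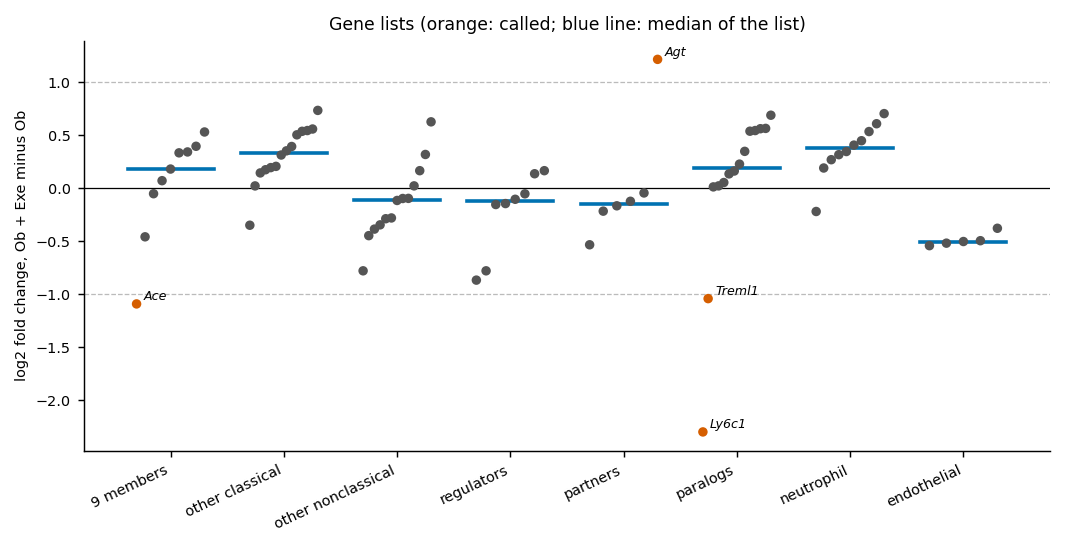
Log2 fold changes (vertical axis, Ob + Exe minus Ob) of the tested genes of 8 lists, with points for genes, orange for calls, blue lines for medians and dashed lines at 1 in both directions. The median was 0.33 for other classical genes, -0.11 for other nonclassical genes, 0.38 for neutrophil markers and -0.50 for endothelial markers.

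The genes most alike in pattern were sought for 1 gene of each monocyte class, by the root mean square distance of log2 values centred over the 4 libraries, among 5814 other genes with a mean of at least 10 FPKM. For Ly6c2 they were Gtpbp1 (distance 0.0067), Nploc4 (0.012) and Sf3a3 (0.017), and for Treml4 they were Wdr89 (0.032), Erp29 (0.054) and Fam193b (0.060). None of the 6 is in the lists used here. An order of 4 libraries is easily shared: the order of the libraries seen for Ly6c2 was shared by 1534 genes, or 8.25% of those tested, and that of Treml4 by 981 genes.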

How the data were processed

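RNA-seq libraries of tibial bone marrow from 2 Ob and 2 Ob + Exe mice were used. Per the Methods and the submitters' processing notes, the authors trimmed reads with fastp, removed rRNA reads, aligned to GRCm38 with HISAT2, filtered the alignments by SAMtools and ran StringTie on the transcripts of GENCODE vM25. Tool versions are not given in the sources used here. The authors deposited 1 table per library, in which each of 142604 transcripts has its coverage, a signal that still holds the depth, and its FPKM. The authors' own test was DESeq2, which takes read counts. Here coverage times length divided by the read length of 150 gave read equivalents, which need not be whole.

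Transcript FPKM were summed to genes and scaled by median-of-ratios factors (0.945 to 1.04). Every gene whose mean FPKM reached 0.1 was tested as log2(scaled FPKM + 0.1) with limma 3.58.1 in R 4.3.3 (intensity trend, 2 residual and 3.79 prior degrees of freedom), which understates changes of low genes. A gene was called where its p before adjustment was under 0.05 and its log2 fold change was beyond 1 in size. The fit was also run on simulated data, in which all genes shared the same spread and reads were not divided among transcripts. Such data cannot show how the fit performs on these libraries. Transcript types and shared windows came from GENCODE vM21 on GRCm38, where the transcripts of the 9 genes had the same coordinates. Python 3.11.15, pandas 2.3.3 and matplotlib 3.10.9 served for tables and figures.

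The 9 genes and the lists, written by hand from general knowledge, were chosen with earlier results of these data known. Named genes were the 9 genes, list genes that were called, the 3 most abundant of each monocyte list, the genes nearest in pattern, and markers beside a result. Others named were chosen after their values were seen. The alternatives were other minimum values, pseudocounts and scalings, limma voom, no trend, the replicate block, the most abundant transcript, and leaving out each library. The crossed pairing was added after seeing the data.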

Additional observations from a re-analysis of the deposited data

How the results depend on the processing

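Of 135 log2 fold changes of the 9 genes under 15 alternatives, 123 kept their direction and their side of the thresholds, 8 lost the call of Ace and 4 turned in sign. No member was called (0 of 9, against 1) without a minimum FPKM, with a pseudocount of 1, without the intensity trend, with the most abundant transcript alone, or with any single library left out (0 in each case). Ace stayed below 0 throughout, from -1.49 to -0.68, with unadjusted p from 0.0174 to 0.285 and adjusted p no lower than 0.416 in limma. The sign of Ly6c2 ranged from -0.26 to 0.16 and that of Treml4 from -0.22 to 0.91 with a library left out, Ly86 was -0.015 without scaling, and Treml1 was 2.23 with the most abundant transcript alone. The cause was not tested.

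Over all genes, 696 calls (511 lower, 185 higher) became 270 (176 and 94) with a minimum mean of 1 FPKM, 222 (149 and 73) with a pseudocount of 1, 1059 (784 lower) without the trend and 460 (333 lower) with limma voom. Calls of lower genes numbered 818 without a minimum, and those of higher genes 342 with the most abundant transcript alone. Quantile normalization moved the split to 416 lower and 246 higher. With a library left out, calls ranged from 745 (without Ob replicate 2) to 1919 (without Ob + Exe replicate 2), those of lower genes from 651 to 1271 and those of higher genes from 94 to 648. A fit with 1 library in a group assumes that it varies like the other group.

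Replicate numbers 1 and 2 occur in both groups, but nothing says that they pair mice. Across genes, the difference between replicates 1 and 2 in Ob correlated with that in Ob + Exe at -0.106, and at -0.235 for genes of at least 1 FPKM. The replicate block gave 744 calls, and 18 genes then passed an adjusted p of 0.05 in limma. With the crossed pairing these were 802 and 11. All values rest on 2 mice in each group.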
